A study of Mus musculus with 64 samples.

Results

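The comparison asked which genes answered activation differently when the aryl hydrocarbon receptor (AhR) was missing. It contrasted 16 of the 64 libraries of the series, namely the libraries without AhR ligand at 3 h, with 4 libraries in each of 4 groups. The spread between libraries was estimated from all 64. Bone marrow-derived macrophages (BMMs) were grown from female Ahr+/+ mice of the C57BL/6JRj strain and from Ahr-/- mice on a C57BL/6 background that were back-crossed in-house, 4 mice per genotype at 8 to 12 weeks of age. All 16 cultures received the solvent dimethyl sulfoxide (DMSO) at 0.01% for 6 h. One group of each genotype was then activated for 3 h with heat-killed *Salmonella* Enteritidis (hk S.E.) at 10000000 per ml, and the other was left without activation. The macrophages were differentiated with L929-conditioned medium. For each of the 14537 genes tested, the log2 response to hk S.E. in Ahr+/+ BMMs was subtracted from that in Ahr-/- BMMs. This value is called the difference of responses. It is positive where the Ahr-/- response was the more upward one and negative where it was the more downward one.

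AhR is a transcription factor that binds ligands in the cytosol, enters the nucleus, pairs with ARNT and binds DNA elements with the core GCGTG. It is known for inducing *Cyp1a1*, *Cyp1b1*, the repressor *Ahrr* and *Tiparp*, and it also pairs with NF-kB subunits. In macrophages, bacterial products are sensed by Toll-like receptors, which drive cytokines and chemokines through NF-kB and interferon-beta through IRF3, and interferon-beta then drives a further set of antiviral genes.

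Levels are given as CPM, the counts of a gene scaled to a fixed library total after TMM correction. Counts assigned to genes ran from 15678717 to 30760778 per library. The 8 macrophage markers, among them *Adgre1* (F4/80), *Csf1r* and *Lyz2*, were detected in every library, with summed levels of 25335 to 28976 CPM in the non-activated Ahr-/- group and 26190.5 to 28222 CPM in its Ahr+/+ counterpart. Erythroid markers were at 0 in all 16 libraries. The summed fibroblast markers stayed at or under 3.80 CPM, with the higher values in Ahr-/- libraries, and the summed neutrophil markers, at 14.4 to 37.1 CPM without activation, were at 103 to 237 CPM in activated Ahr+/+ and 105 to 108 CPM in activated Ahr-/- BMMs. The rise of the neutrophil sum lay in *S100a8*, *S100a9*, *Ngp* and *Camp*. *Ly6g*, *Mpo*, *Elane* and *Retnlg* stayed at or under 0.442 CPM in every group. Whether cells other than macrophages had a part in the results was not tested. Nothing in the sources used here states that replicate number 1 of a non-activated group and number 1 of an activated group came from the same mouse.

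Library 1 of the non-activated Ahr-/- group stood apart from the other number 1 libraries in some measures and not in others. In the 7 other Ahr-/- groups of the series, *Zfp984*, a zinc finger gene chosen after its values were seen, was at 2.71 to 10.1 CPM in libraries 1 and 2 and at 12.1 to 40.3 CPM in libraries 3 and 4. It was at 3.99 and 4.76 CPM in libraries 1 and 2 of the activated Ahr-/- group and at 15 and 18.6 CPM in libraries 3 and 4. In the non-activated group it was at 35 CPM in library 1, 7.18 CPM in library 2, and 23.1 and 22.9 CPM in libraries 3 and 4. Over 11576 genes with a mean of at least 1 CPM, the deviations of library 1 from its group mean had a mean correlation of -0.354 with the number 1 libraries of the other Ahr-/- groups and of 0.422 with the number 3 libraries. The deviations within a group are tied through its mean. Library 2 deviated strongly, with mean correlations of 0.575 with the number 2 and -0.617 with the number 3 libraries. In interferon-stimulated genes library 1 lay with library 2 instead, at a mean log2 CPM of 3.17 and 3.41 against 4.51 and 4.48 in libraries 3 and 4. The counts of called genes, the called genes and the list medians printed here are therefore also given without library 1 of this group.

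Activation itself was strong in both genotypes. At an adjusted p below 0.01, 3525 genes rose and 4697 fell in Ahr+/+ BMMs, and 3702 rose and 4628 fell in Ahr-/- BMMs. Between these responses, 2 genes differed by the quasi-likelihood test of edgeR (p-values adjusted by Benjamini-Hochberg), or 0.0138% of the genes tested. These were *Rcsd1*, whose induction was larger in Ahr-/- BMMs, and *Enc1*, whose repression was larger in Ahr-/- BMMs. Among genes called by this edgeR fit, 0 had an induction or repression that was smaller without AhR. At an unadjusted p below 0.05, which 867 of the 14537 genes reached, there were 432 such genes, of which 137 had a smaller induction and 295 a smaller repression. Of the 867, 215 had a larger induction and 141 a larger repression in Ahr-/- BMMs, and 79 had neither response called. In all fits, a gene repressed in Ahr+/+ but induced in Ahr-/- BMMs was counted as a larger induction. *Tsr1*, with responses of -0.29 and 0.30, was such a gene. A gene induced in Ahr+/+ but repressed in Ahr-/- BMMs was counted as a smaller induction. The counts of smaller repressions therefore leave out repressions that turned into inductions. With DESeq2 on all 64 libraries 8 genes with a smaller response were called, with DESeq2 on the 16 libraries 6, and with limma on the variance-stabilised values 2. An edgeR fit with the replicate number as a block within genotype called 31 genes on all 64 libraries, of which 15 had a smaller response (3 inductions and 12 repressions), and 0 genes on the 16 libraries. Whether the block applies rests on what the numbers mark, which the sources used here do not state. Without library 1 of the non-activated Ahr-/- group edgeR again called 2 genes, *Rcsd1* and *Ets2*. Leaving out any 1 library gave 1 to 9 called genes, with 9 without activated Ahr+/+ library 3. Over all genes, the median difference of responses was 0.01, and its quartiles were -0.14 and 0.18. An unadjusted p below 0.05 was reached by 569 genes with the higher response in Ahr-/- BMMs, or 3.91%, and by 298 with the lower response, or 2.05%. For 748 genes, or 5.15%, the 4 responses formed within Ahr-/- replicate numbers all lay on one side of the 4 Ahr+/+ responses.

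**Figure D1:**
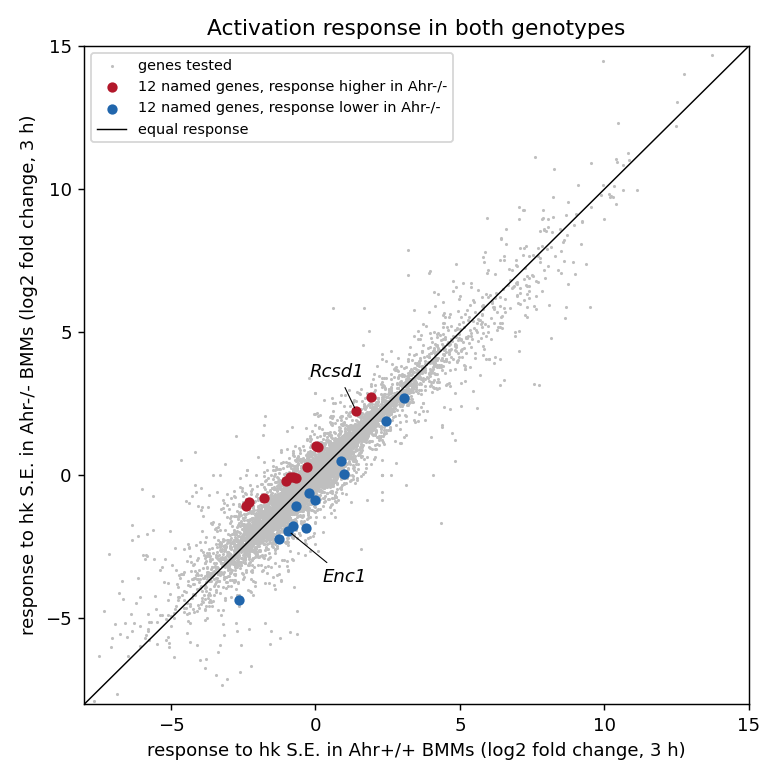
Log2 response to hk S.E. in Ahr+/+ BMMs (x axis) against Ahr-/- BMMs (y axis), one grey point for each gene tested, with the line of equal response. The 24 named genes lie off the line at small and moderate responses, and *Rcsd1* (1.41 against 2.24) and *Enc1* (-0.94 against -1.95) are the 2 that passed the test.

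*Rcsd1* encodes CapZIP, a protein that binds the actin capping protein CapZ and is phosphorylated by stress-activated kinases. The gene (ENSMUSG00000040723.14) lies on chromosome 1 from 165646516 to 165709757 on the minus strand of GRCm38. Without activation it was at 32.8, 35.2, 32.1 and 32.5 CPM in the 4 Ahr+/+ libraries and at 33.4, 32.8, 29.8 and 30.1 CPM in the 4 Ahr-/- libraries. After hk S.E. it was at 83.9, 84.6, 98.9 and 85.6 CPM in Ahr+/+ and at 155, 167, 141 and 135 CPM in Ahr-/- BMMs. The non-activated groups thus overlapped, whereas each activated Ahr-/- library lay above each activated Ahr+/+ library. The gene rose 2.66-fold in Ahr+/+ and 4.74-fold in Ahr-/- BMMs, and the difference of responses was 0.83 ± 0.13 (SE, log2, n = 4 libraries per group; edgeR adjusted p = 5.7e-04). Libraries that received an AhR ligand before activation entered the fit, and so the estimate of the spread, but not the difference of responses. Whether they came from the same mice is not stated in the sources used here. Values from these libraries are given for benzo[a]pyrene (BaP) first and indole-3-carbinol (I3C) second. There the level in Ahr-/- BMMs exceeded that in Ahr+/+ BMMs by 0.92 and 0.85 on the log2 scale (edgeR adjusted p = 1.11e-10 and 2.86e-09). At 20 h, in other libraries, the difference of responses was 0.50 (edgeR adjusted p = 0.00785). The call held in each of 16 fits that left out 1 library, with differences between 0.79 and 0.89. When only the 16 libraries were fitted, so that the spread was estimated from fewer samples, the edgeR adjusted p was 0.0199 and the gene was no longer called.

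*Enc1* encodes an actin-binding Kelch-repeat protein that serves as an adapter of a ubiquitin ligase. The gene (ENSMUSG00000041773.8) lies on chromosome 13 from 97241105 to 97253034 on the plus strand. Without activation it was at 61.2, 65.4, 62.9 and 55.5 CPM in Ahr+/+ and at 122, 122, 104 and 107 CPM in Ahr-/- BMMs, so that the groups did not overlap. After hk S.E. the levels were 27.8, 39.8, 28.9 and 31.1 CPM in Ahr+/+ and 27.3, 25.5, 32.1 and 33.2 CPM in Ahr-/- BMMs, and the groups overlapped. Unlike *Rcsd1*, the genotypes differed before activation (by 0.89 on the log2 scale, edgeR adjusted p = 2.95e-06) and the activated levels differed by -0.11 (edgeR adjusted p = 0.696). The response was -0.94 in Ahr+/+ and -1.95 in Ahr-/- BMMs, which gave a difference of -1.01 ± 0.17 (SE, log2, n = 4 libraries per group; edgeR adjusted p = 0.00323). At 20 h the difference was -0.31 (edgeR adjusted p = 0.337). The call was less stable than that of *Rcsd1* when single libraries were left out. It held in 7 of 16 such fits, and the direction in all 16. The edgeR adjusted p was 0.0108 and 0.021 without non-activated Ahr+/+ library 1 or 4, 0.0857 and 0.0188 without activated Ahr+/+ library 2 or 4, 0.0105 and 0.0148 without non-activated Ahr-/- library 1 or 2, and 0.05, 0.0375 and 0.0102 without activated Ahr-/- library 1, 2 or 3. On the 16 libraries alone it was 0.064, and with the series of library identifiers as covariate 0.0307.

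**Figure D2:**
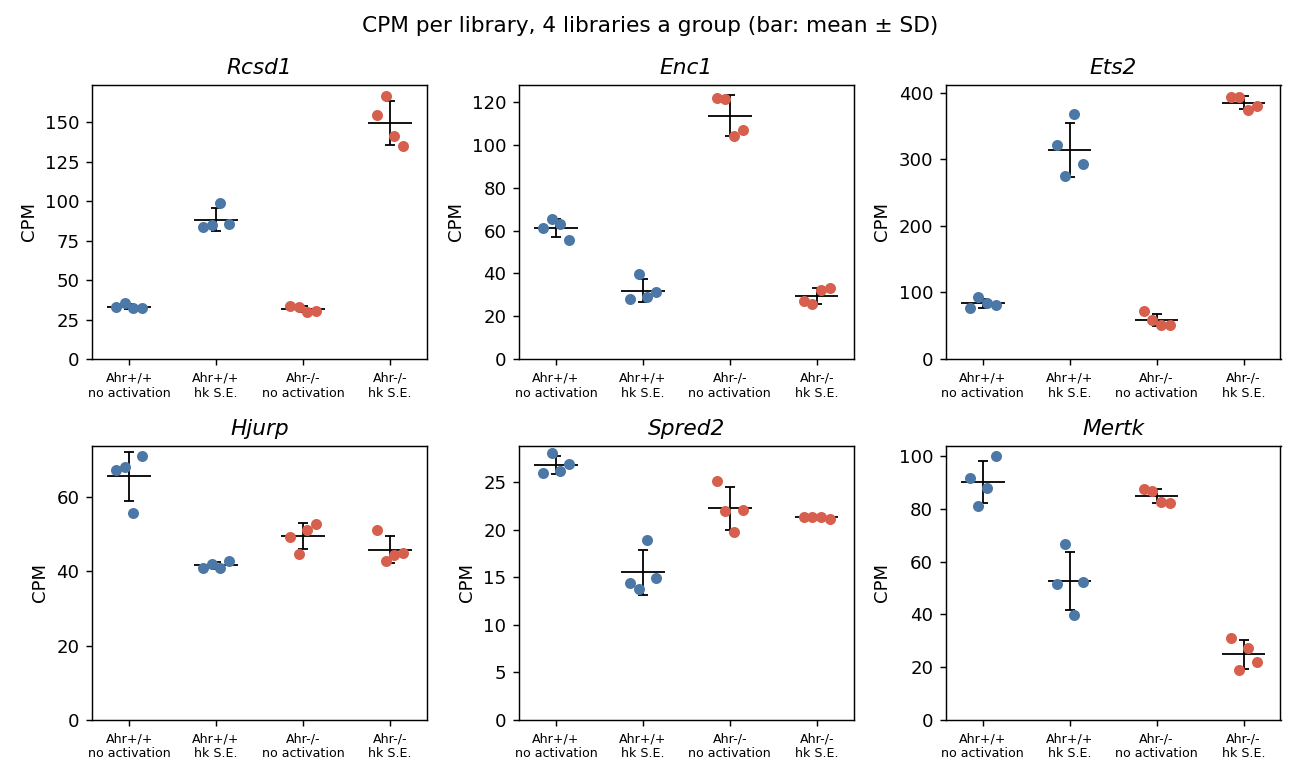
CPM (y axis) in each of the 16 libraries for *Rcsd1*, *Enc1*, *Ets2*, *Hjurp*, *Spred2* and *Mertk*, with the 4 groups on the x axis and bars for the mean ± SD of 4 libraries. *Rcsd1* separates the genotypes after activation (83.9 to 98.9 against 135 to 167 CPM), and *Enc1* before it (55.5 to 65.4 against 104 to 122 CPM).

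The genes that follow were named by rank of the unadjusted p, 12 in each direction with the called ones. They were taken from genes whose 4 responses per genotype did not overlap. These responses were formed within equal replicate numbers, a pairing that no source used here states. Apart from *Rcsd1* and *Enc1* they did not pass the test, with edgeR adjusted p-values from 0.0193 to 0.344, and their values are given as a description. With the replicate number as a block on all 64 libraries, edgeR called 14 of the 24, including *Rcsd1* and *Enc1*, against 31 of all 14537 genes. Of the 14, 11 had the higher and 3 the lower response in Ahr-/- BMMs. The 24 were chosen from these same data by p and by responses within replicate numbers. Their share of calls with the block was therefore raised by the choice and is no further support for them.

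Of these, 3 more had an edgeR adjusted p below 0.05, and in all of them the response was the more upward one in Ahr-/- BMMs. *Ets2*, an ETS factor downstream of MAP kinases, was at 76.2, 92.8, 83.8 and 81.2 CPM without activation in Ahr+/+ and at 71.4, 58.9, 51.6 and 51.8 CPM in Ahr-/- BMMs. After hk S.E. it was at 321, 275, 368 and 293 CPM against 393, 393, 374 and 379 CPM. The Ahr-/- levels were thus lower in each library before and higher in each library after activation, and the difference of responses was 0.81 ± 0.16 (SE, log2; edgeR adjusted p = 0.0193, and 0.00377 without non-activated Ahr-/- library 1). *Spred2*, an inhibitor of Ras to MAP kinase signaling, was at 26 to 28.1 CPM in Ahr+/+ before and 13.8 to 19.0 CPM after activation. In Ahr-/- BMMs it was at 19.8 to 25.2 CPM before and 21.1 to 21.4 CPM after, with a difference of 0.73 ± 0.15 (SE, log2; edgeR adjusted p = 0.0452). *Hjurp*, the chaperone that deposits the centromeric histone CENP-A, was at 55.8 to 71.0 CPM before and 40.8 to 42.8 CPM after activation in Ahr+/+ BMMs, but at 44.8 to 52.7 and 42.8 to 51.1 CPM in Ahr-/- BMMs. Its difference was 0.54 ± 0.11 (SE, log2; edgeR adjusted p = 0.0193), and at 20 h it was 0.79 (edgeR adjusted p = 8.52e-07).

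The promoter windows of RefSeq (GRCm38.p6, 250 bases before to 50 bases after the start of each gene) were searched for the AhR and ARNT core GCGTG on both strands. Windows were found for 17 of the 24 named genes, 9 with the higher and 8 with the lower response in Ahr-/- BMMs, and not for *Rcsd1* or *Enc1*. The core was present in 12 of 19 windows, among 32.4% of all 32851 windows and 49.3% of those of genes tested here. By direction, 7 of 9 genes with the higher and 5 of 8 with the lower response had it in at least 1 window. A match is a description of the letters and not of binding. The 250 bases before the start are shown for *Frmd6* and *Txnip*, which in each direction hold the most cores among named genes whose printed bases lie outside the annotated gene. Capitals mark the core on either strand, and the sequences run 5′ to 3′ on the strand of the gene. They are chr12:70825264-70825513 on the plus strand and chr3:96557707-96557956 on the plus strand.
Frmd6: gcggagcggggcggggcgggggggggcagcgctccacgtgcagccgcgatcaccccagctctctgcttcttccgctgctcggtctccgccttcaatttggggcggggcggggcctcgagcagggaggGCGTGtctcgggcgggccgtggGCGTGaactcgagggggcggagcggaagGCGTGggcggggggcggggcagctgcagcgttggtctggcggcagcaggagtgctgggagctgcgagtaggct
Txnip: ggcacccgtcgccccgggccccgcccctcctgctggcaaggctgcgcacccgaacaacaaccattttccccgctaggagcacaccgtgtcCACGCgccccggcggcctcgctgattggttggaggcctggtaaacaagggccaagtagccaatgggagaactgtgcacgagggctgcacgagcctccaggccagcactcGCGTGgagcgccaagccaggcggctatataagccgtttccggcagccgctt
The window of *Frmd6* holds the core 3 times and that of *Txnip* 2 times.

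Of the remaining genes with the higher response in Ahr-/- BMMs, *Gnl3* encodes nucleostemin, a nucleolar GTPase. It fell from 29.7 to 34.3 CPM before activation to 13.8 to 21.9 CPM after it in Ahr+/+ BMMs, while the Ahr-/- libraries were at 24 to 31.5 CPM before and 25.5 to 30.0 CPM after. The difference was 0.82 ± 0.19 (SE, log2; edgeR adjusted p = 0.0624). *Tsr1*, a factor that matures the small ribosomal subunit, was at 31.0 to 32.9 and 22.4 to 29.1 CPM in Ahr+/+ against 26.5 to 30.1 and 33.4 to 37.3 CPM in Ahr-/- BMMs, without and with activation. *Trmt61a*, the catalytic subunit of a tRNA methyltransferase, was at 9.31 to 12.5 and 3.79 to 6.65 CPM in Ahr+/+ against 8.58 to 10.0 and 7.06 to 10.0 CPM in Ahr-/- BMMs. In all 3 genes the activated Ahr-/- libraries lay above the activated Ahr+/+ libraries. The non-activated groups overlapped for *Gnl3* and *Trmt61a*, and for *Tsr1* the Ahr-/- libraries lay lower.

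For *Irs2*, an adapter of the insulin and IL-4 receptors, the non-activated levels were 10.6 to 11.9 CPM in Ahr+/+ and 11.3 to 14.7 CPM in Ahr-/- BMMs. After hk S.E. they were 1.81 to 2.66 against 5.18 to 9.61 CPM, a difference of responses of 1.37 ± 0.31 (SE, log2; edgeR adjusted p = 0.0624). *Adi1*, an enzyme of the methionine salvage pathway, was at 4.02 to 6.47 CPM in activated Ahr+/+ and 11.3 to 28.6 CPM in activated Ahr-/- BMMs, after 24.5 to 30.1 and 30.0 to 44.1 CPM without activation. *Adi1* lies on chromosome 12 from 28675231 to 28682175, within 10 Mb of *Ahr*, the locus that distinguishes the mice. In that window 54 genes were tested, and 3 had an unadjusted p below 0.05, against 867 of all 14537 genes. Of the 24 named genes, *Frmd6*, *Trmt61a*, *Vipas39* and *Spata7* also lie on chromosome 12, outside that window. Of the 14537 genes tested, 525 lie on this chromosome. Whether DNA around *Ahr* or elsewhere on chromosome 12 differs between the mice was not tested. *E2f8*, an atypical repressor of the E2F family, was at 15.9 to 19.0 and 15.5 to 20.4 CPM in Ahr+/+ against 9.70 to 11.9 and 20.0 to 23.8 CPM in Ahr-/- BMMs, without and with activation. *Frmd6*, a FERM domain protein linked to Hippo signaling, was at 15.3 to 24.9 CPM in activated Ahr+/+ and 23.5 to 32.6 CPM in activated Ahr-/- BMMs. *Soga1* was at 6.6 to 10.5 CPM in activated Ahr+/+ and 13.8 to 16.3 CPM in activated Ahr-/- BMMs, after 24.7 to 32.4 and 20.0 to 30.0 CPM without activation.

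Among the 12 genes with the lower response in Ahr-/- BMMs, *Mertk*, a receptor for apoptotic cells, was at 91.8, 81.0, 88.1 and 100.0 CPM without activation in Ahr+/+ and at 87.7, 86.7, 82.8 and 82.4 CPM in Ahr-/- BMMs. After hk S.E. it was at 51.6, 66.8, 39.9 and 52.1 CPM against 31.0, 18.9, 27.3 and 22.1 CPM. The activated groups did not overlap, the non-activated ones did, and the difference was -1.0 ± 0.29 (SE, log2; edgeR adjusted p = 0.281). In the BaP and I3C libraries the activated level in Ahr-/- BMMs differed from that in Ahr+/+ by -1.52 and -1.31 on the log2 scale (edgeR adjusted p = 1.33e-06 and 2.96e-05). *Ctsc*, the protease cathepsin C that activates granule serine proteases, rose 5.46-fold in Ahr+/+ and 3.76-fold in Ahr-/- BMMs, with a difference of -0.54 ± 0.16 (SE, log2; edgeR adjusted p = 0.293).

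*Nlrp10*, an NLR protein without leucine-rich repeats, was at 2.96 to 5.04 CPM before and 2.22 to 4.07 CPM after activation in Ahr+/+ BMMs, and at 5.48 to 7.55 and 1.3 to 2.3 CPM in Ahr-/- BMMs. Its difference was -1.50 ± 0.34 (SE, log2; edgeR adjusted p = 0.0624). *Birc3*, a ubiquitin ligase of the NF-kB pathway, reached 314 to 349.5 CPM in activated Ahr+/+ and 313 to 325 CPM in activated Ahr-/- BMMs from 38.6 to 43.0 and 47.2 to 49.3 CPM, so that its smaller response lay in the non-activated level. *Txnip*, a thioredoxin-binding protein that follows glucose, likewise had overlapping activated levels (223 to 264 and 238 to 256 CPM) and separate non-activated ones (337 to 423 and 495 to 565 CPM). The others were *Gprc5c*, *Rhod*, *Akap7*, *Igbp1*, *Vipas39* and *Spata7*, with differences between -0.40 and -1.72. *Rhod*, a small GTPase of endosomes, was at 0.0623 to 0.229 CPM in activated Ahr-/- BMMs. Its activated level differed from that in Ahr+/+ by -1.86 (log2) without ligand, but by 0.72 with BaP and 0.06 with I3C. Of the 24 named genes, 22 kept the sign of this genotype gap with BaP and 22 with I3C. At 20 h, 20 of the 24 kept the sign of the difference of responses, and *Adi1* (-0.42) and *E2f8* (-0.12) did not.

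**Figure D3:**
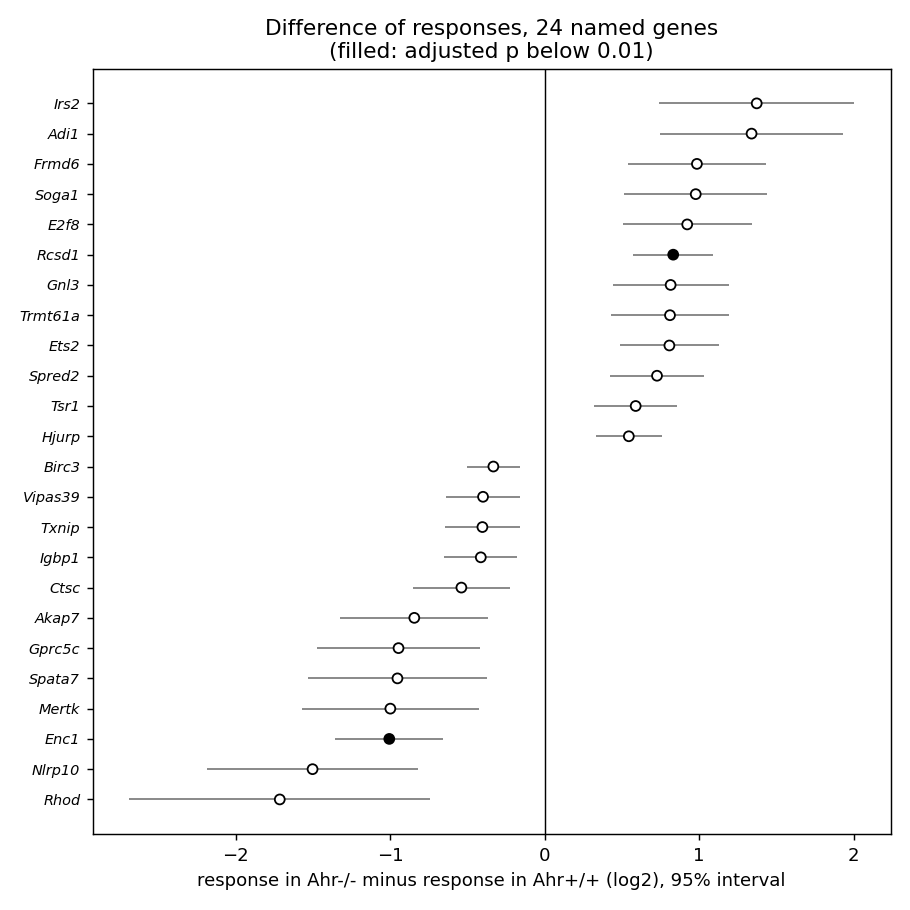
Difference of responses (x axis, log2, with 95% interval) for the 24 named genes, *Irs2* (1.37) to *Rhod* (-1.72). Filled points mark *Rcsd1* (0.83) and *Enc1* (-1.01), and the open points did not pass the test although their intervals exclude 0, since they were ranked by p.

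The genes of the AhR pathway were checked first for the genotype itself. *Ahr* (chromosome 12, 35497974 to 35535038) was counted in every library, at 3.9, 4.67, 3.01 and 1.09 CPM without and 9.77, 6.67, 7.13 and 4.46 CPM with activation in Ahr+/+ BMMs. In Ahr-/- BMMs it was at 9.47, 6.62, 5.32 and 5.11 CPM and at 13.1, 12.8, 12.9 and 12.8 CPM. Gene counts sum over all exons and so do not check the deleted part. *Ahrr*, the AhR repressor, fell after activation in both genotypes, from 2.42 to 3.79 to 0.346 to 0.582 CPM in Ahr+/+ and from 1.81 to 2.15 to 0.125 to 0.319 CPM in Ahr-/- BMMs. The groups did not overlap between genotypes before or after activation, and the difference of responses was -0.42 ± 0.43 (SE, log2; edgeR adjusted p = 1). In the BaP and I3C libraries the activated level of *Ahrr* in Ahr-/- BMMs differed from that in Ahr+/+ by -4.80 and -2.88 on the log2 scale (edgeR adjusted p = 2.57e-18 and 4.15e-10). At 20 h its difference of responses was -2.03 (edgeR adjusted p = 1.95e-06). *Nqo1*, a quinone reductase, was at 6.70 to 11.8 and 8.34 to 12.8 CPM in Ahr+/+ against 4.28 to 6.28 and 4.30 to 6.62 CPM in Ahr-/- BMMs, with a difference of -0.10 ± 0.35 (SE, log2). *Cyp1a1* and *Cyp1b1* were too low to test, with at most 2 counts in any of the 16 libraries. Of the 10 tested genes of the AhR target list, 0 had an unadjusted p below 0.05 in edgeR, and the median difference was -0.11 (-0.15 without non-activated Ahr-/- library 1) against 0.01 for all genes.

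*Tiparp*, an ADP-ribosyltransferase that dampens AhR, showed how the activated Ahr-/- libraries fell into numbers 1 and 2 and numbers 3 and 4. It rose to 369, 461, 382 and 383 CPM in Ahr+/+ and to 251, 237, 406 and 405 CPM in Ahr-/- BMMs. *Ifnb1*, interferon-beta, was at 13.8, 22.3, 13.2 and 17.8 CPM in activated Ahr+/+ and at 6.66, 3.80, 17.6 and 16.7 CPM in activated Ahr-/- BMMs, and at or below 0.0474 CPM without activation. *Il6* was at 599, 607, 567 and 492 CPM against 373, 345, 609.5 and 571 CPM. For all 3 genes, Ahr-/- libraries 1 and 2 lay below the Ahr+/+ range whereas libraries 3 and 4 lay within it or, for *Il6*, up to 609.5 CPM. *Il1b* went the other way, at 3771 to 4488 CPM in activated Ahr+/+ and at 5657, 6002, 4245 and 3751 CPM in activated Ahr-/- BMMs. *Serpinb2*, the protease inhibitor PAI-2, chosen after its values were seen, was at 11.7 to 17.9 CPM in activated Ahr+/+ BMMs, at 6.79 and 10.7 CPM in Ahr-/- libraries 1 and 2, and at 0 in libraries 3 and 4. What this split between replicate numbers reflects was not tested.

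**Figure D4:**
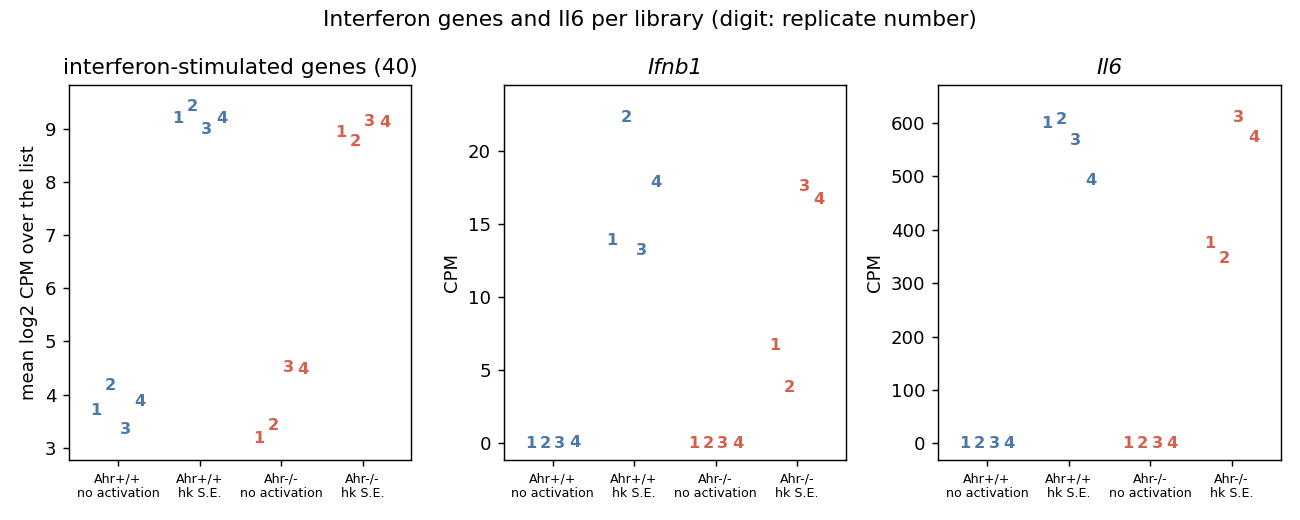
Mean log2 CPM over 40 interferon-stimulated genes (left), and CPM of *Ifnb1* (middle) and *Il6* (right), in each of the 16 libraries, with digits for replicate numbers and blue for Ahr+/+ and red for Ahr-/-. In the activated Ahr-/- group, numbers 1 and 2 lie below numbers 3 and 4 in all 3 panels.

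*Tnf*, *Il10*, *Il12b* and *Nos2* were induced in both genotypes, and their differences of responses did not pass the edgeR test. *Tnf* was at 4676 to 5413 CPM in activated Ahr+/+ and 5304 to 5871 CPM in activated Ahr-/- BMMs, with a difference of 0.25 ± 0.17 (SE, log2; edgeR adjusted p = 0.986). *Il10*, an anti-inflammatory cytokine, reached 9.70, 16.1, 10.7 and 7.24 CPM in Ahr+/+ and 7.66, 9.70, 4.72 and 4.79 CPM in Ahr-/- BMMs, from 0.474 to 0.677 and 0.526 to 1.08 CPM. Its difference was -1.19 ± 0.52 (SE, log2; edgeR adjusted p = 0.73). *Il12b*, the p40 subunit of IL-12, was at 0 in the 4 non-activated Ahr-/- libraries and at 67.5 to 90.6 and 63.6 to 137 CPM in activated Ahr+/+ and Ahr-/- BMMs, so no fold is given. *Nos2*, the inducible nitric oxide synthase, was at 791 to 1245 CPM in activated Ahr+/+ and 453 to 768 CPM in activated Ahr-/- BMMs. The activated groups of *Nos2* did not overlap, and the difference of responses, set against non-activated levels under 1 CPM, was 0.55 ± 1.21 (SE, log2).

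By lists of genes, 40 interferon-stimulated genes stood furthest below the median of all genes. Of the 40, 39 were induced in each genotype, 38 had a negative difference and 4 had an unadjusted p below 0.05, all with the lower response in Ahr-/- BMMs, while edgeR called 0. The median difference was -0.38 with all libraries and -0.58 without non-activated Ahr-/- library 1, against 0.01 and 0.02 for all genes. Of all 14537 genes, 6925 had a negative and 7609 a positive difference. An unadjusted p below 0.05 was reached by 2.05% with the lower and 3.91% with the higher response in Ahr-/- BMMs. These shares over all genes also stand beside the counts of the lists that follow. The mean log2 CPM over the list was 3.17 and 3.41 in non-activated Ahr-/- libraries 1 and 2 and 4.51 and 4.48 in libraries 3 and 4, against 3.33 to 4.16 in the Ahr+/+ libraries. After activation it was 8.93, 8.77, 9.15 and 9.12 against 8.98 to 9.43. Taken within replicate numbers, the mean response over the list was 5.76, 5.36, 4.63 and 4.65 in Ahr-/- numbers 1 to 4 and 5.26 to 5.65 in Ahr+/+ BMMs. The lower responses were thus those of Ahr-/- numbers 3 and 4, while number 2 lay within and number 1 above the Ahr+/+ range. *Irf8*, a lineage factor of macrophages and a target of interferon-gamma, had the smallest p of the list, at 671 ± 151 CPM in activated Ahr+/+ and 403 ± 75.8 CPM in activated Ahr-/- BMMs (mean ± SD, n = 4) from 146 ± 9.01 and 155 ± 23.5 CPM. Its difference was -0.82 ± 0.21 (SE, log2; edgeR adjusted p = 0.14).

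Of 20 chemokines tested, 16 had a positive difference, with a median of 0.60 (0.63 without non-activated Ahr-/- library 1). An unadjusted p below 0.05 was reached by 4 with the higher and 1 with the lower response in Ahr-/- BMMs, and edgeR called 0. Many of these chemokines were near the floor without activation, where a fold is poorly determined. *Cxcl5* and *Ccl17* had means of 0 CPM in both non-activated groups. *Cxcl1*, *Cxcl3*, *Cxcl9*, *Cxcl11*, *Ccl8*, *Ccl12* and *Ccl22* had means under 1 CPM in both. The higher responses came with lower non-activated levels in some chemokines and with higher activated levels in others. *Cxcl2* was at 5.36 ± 1.19 CPM in Ahr+/+ and 4.95 ± 0.54 CPM in Ahr-/- BMMs without activation (mean ± SD, n = 4). With activation it was at 1299 ± 296 and 1869 ± 162 CPM. *Ccl22* was at 0.54 and 0.21 CPM without and 56.2 and 81.7 CPM with activation (means). *Ccl4*, a chemokine that attracts monocytes and T cells, was at 18.5 ± 6.09 CPM in non-activated Ahr+/+ and 9.59 ± 0.629 CPM in non-activated Ahr-/- BMMs, and at 4889 ± 317 and 4720.1 ± 400.3 CPM after hk S.E. (mean ± SD, n = 4), a difference of 0.90 ± 0.23 (SE, log2; edgeR adjusted p = 0.126). *Ccl2*, which attracts monocytes, was at 19.0 ± 7.88 and 4.49 ± 1.81 CPM without and 591 ± 124 and 243 ± 50.2 CPM with activation (mean ± SD, n = 4), so that a larger fold response in Ahr-/- BMMs went with a lower activated level. *Ccl5* had a lower response, at 10.4 ± 2.13 and 22.4 ± 10.6 CPM without activation and 2538 ± 159 and 2666 ± 611 CPM with it.

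Of 18 genes of sterol synthesis and efflux, 16 had a positive difference, with a median of 0.16 (also 0.16 without non-activated Ahr-/- library 1), and 4 genes with the higher and 1 with the lower response at an unadjusted p below 0.05. The cholesterol exporter *Abcg1* had the lower response, at 104 ± 17.5 against 83.1 ± 8.11 CPM after activation and 161 ± 18.2 against 183 ± 18.3 CPM before it. Among 20 AP-1 and EGR factors, 4 had an unadjusted p below 0.05, all with the higher response in Ahr-/- BMMs, namely *Myc*, *Fosl1*, *Egr2* and *Maff*. Among 17 NF-kB subunits and inhibitors, all 17 of which were induced in each genotype, 4 had the lower response at that level, namely *Traf1*, *Birc3*, *Nfkbiz* and *Tnip3*. In the lists of chemokine and cytokine receptors (23 tested), antigen presentation (15), effector enzymes (16), glycolysis (19), cell cycle (20) and mitochondrially encoded genes (12), 0 members reached an unadjusted p below 0.05 in edgeR, and the list medians lay between -0.09 and 0.12. Without non-activated Ahr-/- library 1 they lay between -0.11 and 0.14, and the median of the mitochondrially encoded genes turned from -0.09 to 0.14. At an unadjusted p below 0.05, 3 of 20 pro-inflammatory cytokines had the higher response in Ahr-/- BMMs and 0 the lower. The counts were 1 and 3 of 11 anti-inflammatory cytokines and receptors, 2 and 0 of 17 negative feedback genes, and 1 and 1 of 17 genes of type I interferon and its sensing. Over all genes these shares were 3.91% and 2.05%. Some of the cytokine counts rest on genes near the floor. *Il12b* had a mean of 0 CPM in non-activated Ahr-/- and *Il19* in non-activated Ahr+/+ BMMs, and the group means of *Il1r2* reached at most 0.82 CPM. *Csf2*, *Il23a*, *Il12a* and *Csf3* had means of 0 CPM in both non-activated groups and enter the pro-inflammatory median. The pro-inflammatory and anti-inflammatory medians were 0.21 and -0.04 (0.11 and 0.006 without non-activated Ahr-/- library 1). The other lists, Toll-like receptors (23 tested), NRF2 targets (17), matrix proteases (19), macrophage identity (24) and chaperones (18), held at most 1 such gene in each direction, and edgeR called 0 of their members. Over all 21 lists, DESeq2 on all libraries also called 0 members, DESeq2 on the 16 libraries called *Birc3* and *Mertk*, and limma called *Spint1*. With the replicate number as a block on all 64 libraries, edgeR called *Ccl4* and *Tnfsf9* (edgeR adjusted p = 0.00793 for both), against 31 of all 14537 genes. *Tnfsf9* was at 93.6 ± 8.03 CPM in activated Ahr+/+ and 135 ± 27.6 CPM in activated Ahr-/- BMMs (mean ± SD, n = 4). Its difference of responses without the block was 0.77. The list members named here for their unadjusted p were chosen after their values were seen.

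**Figure D5:**
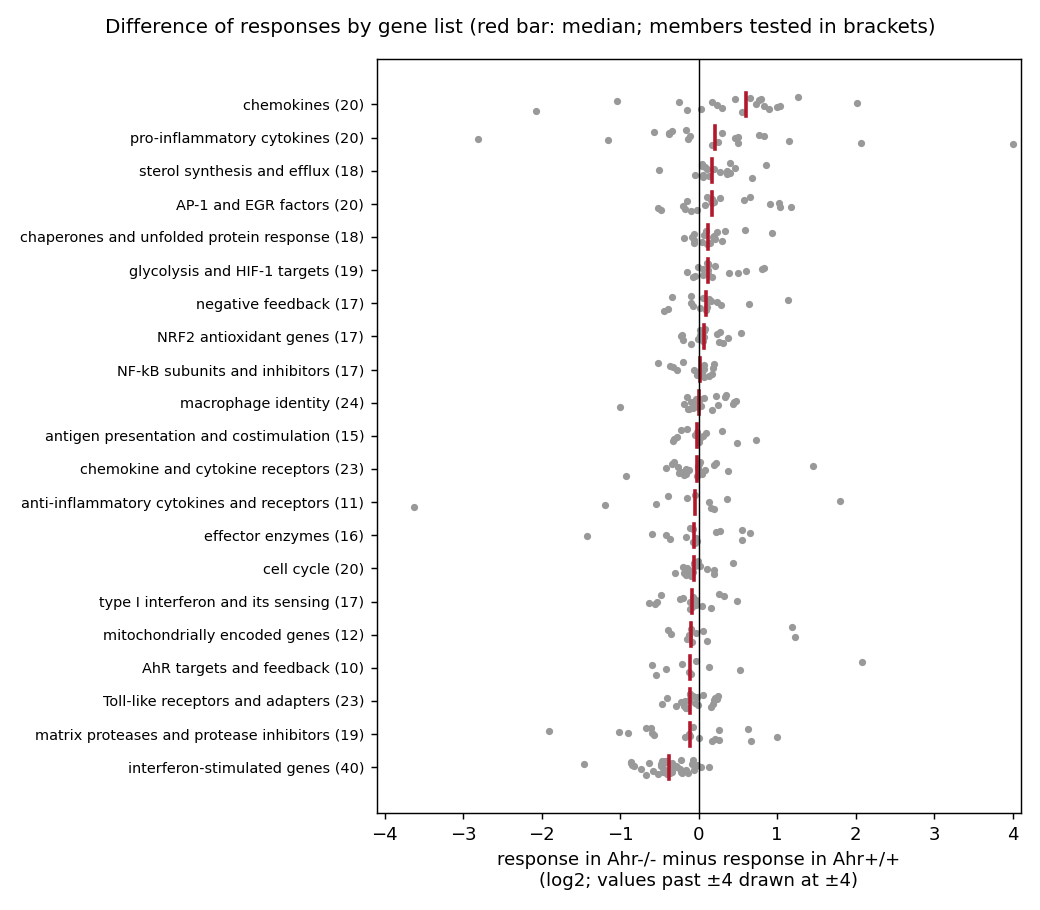
Difference of responses (x axis, log2) of the tested members of 21 gene lists, one grey point per gene and a red bar at the list median. The interferon-stimulated genes lie lowest (median -0.38) and the chemokines highest (median 0.60), while most other lists centre near the median of all genes, 0.01. The chemokine and pro-inflammatory lists include genes near the floor without activation.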

How the data were processed

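Per the labels and the study's methods, mRNA libraries (stranded) were sequenced, trimmed with AdapterRemoval 2.2.1a, aligned with HISAT2 2.1.0 to mm10 and counted per gene with HTSeq 0.9.1 on GENCODE M22, counting strand. The deposited counts were used as the authors gave them. The 5 entries that name no gene were left out (75% to 80% of reads were assigned to genes). The authors also deposited log2 variance-stabilised values, used here for 1 alternative. Names and positions came from GENCODE M21.

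All 64 libraries were fitted with 16 group means in edgeR 4.0.16 (TMM factors, filter at a minimum count of 10, quasi-likelihood test), and p-values were adjusted over 14537 genes by Benjamini-Hochberg, with 0.01 as threshold. CPM values carry the TMM factors. P-values measure the spread between libraries, which may be technical where cultures share a mouse. Alternatives were DESeq2 1.42.0, limma 3.58.1, other scalings and filters, the library identifier series, and leaving out each library.

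Named genes were the called genes and, by smallest unadjusted p, others up to 12 per direction, plus 13 fixed genes. The others had CPM of 1 or more in a group and non-overlapping responses within replicate numbers. The members and lists were chosen with earlier results of these data known. Scripts were tested on simulated data. Total counts limit low genes only. Some items are not reported here.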

Additional observations from a re-analysis of the deposited data

Results flagged for a closer look

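The responses of *Rcsd1* and *Enc1* differed between the genotypes by the test of the interaction itself, with 0.83 and -1.01 on the log2 scale.

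In groups of 4 libraries, 12 of 140 groups over 35 genes held 1 library far from the other 3. Chance flags about 1 in 20 groups. Among activated Ahr+/+ libraries these were *Rcsd1* in number 3 (98.9 CPM, others 83.9 to 85.6), *Ahrr* in number 3 (0.346, others 0.562 to 0.582) and *Tiparp* in number 2 (461, others 369 to 383). Among non-activated Ahr+/+ libraries they were *Soga1* in number 3 (32.4 CPM, others 24.7 to 25), *Ctsc* in number 2 (353, others 301 to 307), *Il12b* in number 3 (0, others 0.0949 to 0.1), *Ifnb1* in number 4 (0.0474, others 0) and *Nos2* in number 4 (0.759, others 0 to 0.0251). Among non-activated Ahr-/- libraries they were *Tsr1* in number 2 (26.5 CPM, others 29.7 to 30.1), *Vipas39* in number 4 (106, others 93.2 to 93.8), *Tiparp* in number 2 (10.0, others 18.4 to 19.0) and *Ifnb1* in number 3 (0.0304, others 0). Without activated Ahr+/+ library 3, which holds 2 of these, 9 genes were called in place of 2.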

How the results depend on the processing

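The number of genes called depended on the fit. Against 2 called genes (1 with the higher response in Ahr-/-, 0 with a smaller response), DESeq2 called 17 on all libraries (14 higher, 8 smaller) and 17 on the 16 libraries (11 higher, 6 smaller), limma 8 (7 higher, 2 smaller), edgeR on the 16 libraries 0 (734 at an unadjusted p below 0.05; 0 higher, 0 smaller), the identifier series as covariate 1, and a threshold of 0.05 gave 5 (4 higher, 2 smaller). RLE and upper quartile scaling and both other filters gave 2. Leaving out 1 library gave 1 to 9 called genes, 1 to 7 with the higher and 0 to 3 with a smaller response; the 9 came without activated Ahr+/+ library 3.

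The replicate block within genotype gave 31 called genes on all libraries (23 higher, 15 smaller) and 0 on the 16 libraries (950 at an unadjusted p below 0.05; 0 higher, 0 smaller). Without non-activated Ahr-/- library 1, an alternative chosen after seeing the data, the block gave 41 (28 higher, 22 smaller), of which 20 were among the 31. The same-number correlations of deviations were 0.119, 0.243, 0.235 and 0.072 in Ahr+/+ and -0.341, 0.579, 0.280 and 0.276 in Ahr-/- BMMs, so 6 of 8 pairs were above 0.1. Against the other groups of their genotype, 14 of 16 libraries correlated best with their own number, and non-activated and activated Ahr-/- library 1 did not. This is a hint from the data that the numbers pair libraries. Since 2 pairs fell short and no source used here states the pairing, the fit without the block was kept, a choice made with the counts of both fits known.

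Of 1015 single-gene values, 930 kept direction and side of the threshold, 58 gained and 14 lost the call (12 of *Enc1*, 2 of *Rcsd1*), and 13 of uncalled genes changed sign. Under limma these were *Ahrr* (0.091) and *Nos2* (-0.79). Over the fits without 1 library, values ran from -0.44 to 0.12 for *Ahr*, -0.25 to 0.042 for *Nqo1*, -2.24 to 1.17 for *Ifnb1* and -2.85 to 1.39 for *Nos2*. With the block and without non-activated Ahr-/- library 1 they were *Ahr* (0.13) and *Tiparp* (0.023). The cause was not tested. Low counts limit what can be said of *Cyp1a1*, *Cyp1b1* and non-activated cytokines.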
